A study of Mus musculus with 27 samples.

Results

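The replication-dependent histone genes are the genes whose messages supply the histones needed when DNA is copied. They were taken as the protein-coding genes of GENCODE mouse release M21 (build GRCm38) with a symbol beginning Hist1h, Hist2h, Hist3h or Hist4h, after matching gene identifiers without their version. The rule found 65 of the 51826 identifiers counted in each library. By family they comprise 6 genes for the linker histone H1, 18 for H2A, 16 for H2B, 12 for H3 and 13 for H4. By position, 52 lie in the Hist1 cluster on chromosome 13, 10 in Hist2 on chromosome 3, 2 in Hist3 on chromosome 11 and 1, Hist4h4, alone on chromosome 6. Hist1h2bh and Hist1h2bm were not analysed here.

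Total RNA was sequenced from 3 mouse lines: the embryonic stem cell line E14 as wild type, and 2 lines on its background, labelled Quaking KO and Sam68 KO. Quaking (gene Qk) and Sam68 (gene Khdrbs1) are RNA-binding proteins of the STAR family. Each line was sampled as stem cells at day 0 and as embryoid bodies, floating clusters of differentiating cells, at days 3 and 10. Each of the 9 groups had 3 biological replicates. Each knockout is 1 line, so a difference between lines cannot be told apart from the effect of the knockout, and the p-values cover no more than the spread of these samples.

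In most messages a poly(A) tail follows the last base. Replication-dependent histone messages end instead in a short stem-loop, which the stem-loop binding protein Slbp holds while the U7 particle, with Lsm10 and Lsm11, and a cleavage complex cut just behind it. These messages are made when cells enter S phase and are destroyed when DNA synthesis stops. H2A and H2B pair in the nucleosome, as do H3 and H4, and H1 binds the linker DNA outside it. Libraries made from total RNA after removal of ribosomal RNA, as here, hold such messages without selecting for a tail.

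The stem-loop is shown for 6 genes on which the results turn, because it sets these messages apart from others. Each is given in the direction of transcription on GRCm38, with the stem-loop in capitals and 5 bases on either side.
Hist3h2a, chr11:58955167-58955192, plus strand: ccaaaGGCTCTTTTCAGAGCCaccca
Hist3h2ba, chr11:58949344-58949369, plus strand: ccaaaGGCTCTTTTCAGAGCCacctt
Hist1h1e, chr13:23621777-23621802, minus strand: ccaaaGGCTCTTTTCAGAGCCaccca
Hist4h4, chr6:136803993-136804018, minus strand: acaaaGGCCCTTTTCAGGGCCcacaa
Hist1h4b, chr13:23757361-23757386, plus strand: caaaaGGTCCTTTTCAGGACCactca
Hist1h1t, chr13:23696520-23696545, plus strand: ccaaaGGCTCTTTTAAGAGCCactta
The pattern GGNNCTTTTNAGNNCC, searched on the transcribed strand, was present in the annotated transcripts of 42 of the 65 genes and in 0.349% of the 21793 protein-coding genes with transcripts. The form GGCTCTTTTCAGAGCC was held by 24 genes of the H1, H2A, H2B and H3 families, and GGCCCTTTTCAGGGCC by 7 H4 genes. No match says only that the annotated model does not hold these letters: several models end with the coding sequence. The poly(A) signals AATAAA or ATTAAA lay in the last 40 bases of a transcript of 17 histone genes, against 79.3% of protein-coding genes.

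Upstream of the genes, RefSeq promoters (GRCm38.p6, 250 bases before to 50 after the start) were matched for 59 of the 65. The octamer ATTTGCAT, searched on both strands, lay in 12 of them (20.3%) against 1.6% of 32851 promoters. The 12 comprised 7 of 17 H2A and 5 of 14 H2B promoters and none of the H1, H3 or H4 promoters. The CCAAT box, on both strands, lay in 81.4% of the 59 and 33.8% of all promoters, and TATAAA, on the transcribed strand, in 40.7% and 7.59%. These motifs can overlap one another, and a match is a description of the letters only. The octamer windows of 3 H2A genes are shown because their members moved in different ways, with the octamer in capitals and read on the strand of the named gene.
Hist1h2aa, chr13:23934287-23934346, plus strand: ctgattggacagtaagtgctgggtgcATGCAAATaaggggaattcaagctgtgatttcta
Hist3h2a, chr11:58954540-58954599, plus strand: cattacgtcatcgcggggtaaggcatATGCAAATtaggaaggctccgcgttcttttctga
Hist2h2ac, chr3:96221047-96221106, minus strand: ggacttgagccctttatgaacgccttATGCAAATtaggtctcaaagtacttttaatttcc
Among the histone genes, 24 formed 12 divergent pairs, each of an H2A and an H2B gene whose starts lie 176 to 306 bases apart. Hist1h2aa is paired in this way with Hist1h2ba, and Hist2h2ac with Hist2h2be.

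The 27 libraries held 56.5 to 77.3 M counts, of which the histone genes took 0.47 to 1.21%. Hist2h2aa1 and Hist2h3c1 had no count in any library, and every one of their 50-base windows occurs in another gene. Of the 65, 12 shared at least 90% of their windows with other genes, 22 shared 50 to 90% and 31 less than 50%, so reads of the first classes may be split between copies or dropped. A further limit is that 24 overlap another annotated gene, and the strand setting of the counting is not given in the sources used here. Qk itself was lower, not lost, in the Quaking KO line: 168.3, 149.6 and 158.8 CPM (counts per 1e+06 counts) at day 0 against 239, 235.7 and 230.6 in wild type. Khdrbs1 was not lost in the line labelled Sam68 KO either, with a mean of 92.3 CPM at day 0 against 98.9 in wild type. The libraries of that line carry a separate run of library numbers, so label and library batch cannot be told apart.

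In wild-type stem cells the members differed widely in level. Per kilobase of annotated exon, the highest members of their families at day 0 were Hist1h1a (1092 CPM per kb) and Hist1h1b (545) for H1, Hist1h2ak (347) and Hist1h2ab (306) for H2A, and Hist1h2bb (758) and Hist1h2bk (556) for H2B. For H3 they were Hist1h3e (418) and Hist1h3c (340), and for H4 Hist1h4f (864) and Hist1h4k (841). All 10 lie in the Hist1 cluster. These ranks depend on the annotated lengths, which need not be the lengths of the messages. Hist1h1d, annotated with 7425 bases and a model that runs 4884 bases past its stem-loop, ranked 5 among the H1 genes at 104 CPM per kb.

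Summed over the members, wild-type libraries held 9867, 9674 and 11705 CPM at day 0. At day 3 the sums were 10551, 10830 and 11605 CPM, and at day 10 they were 5948, 7886 and 7481 CPM. The day 10 libraries all lay below the day 0 libraries, with a ratio of means of 0.682, while days 0 and 3 overlapped. The ratio of day 10 to day 0 was close across families, at 0.701 for H1, 0.717 for H2A, 0.644 for H2B, 0.617 for H3 and 0.72 for H4, and no family's libraries overlapped. The 2 genes of the Hist3 cluster went the other way, with a summed mean of 11.1 CPM at day 0, 38.8 at day 3 and 27.7 at day 10. In bulk RNA, fewer cells of a type and less RNA per cell cannot be told apart. Markers of other cell types moved with the day: the summed embryonic stem cell markers went from 4388 to 4658 CPM at day 0 to 136 to 163 at day 10. The 4 fibroblast markers went from 2.24 to 2.43 CPM to 5440 to 7126 CPM, and none of the extraembryonic endoderm, cardiac or erythroid markers was under 1 CPM at day 10. Their part in the histone values was not tested.

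**Figure D1:**
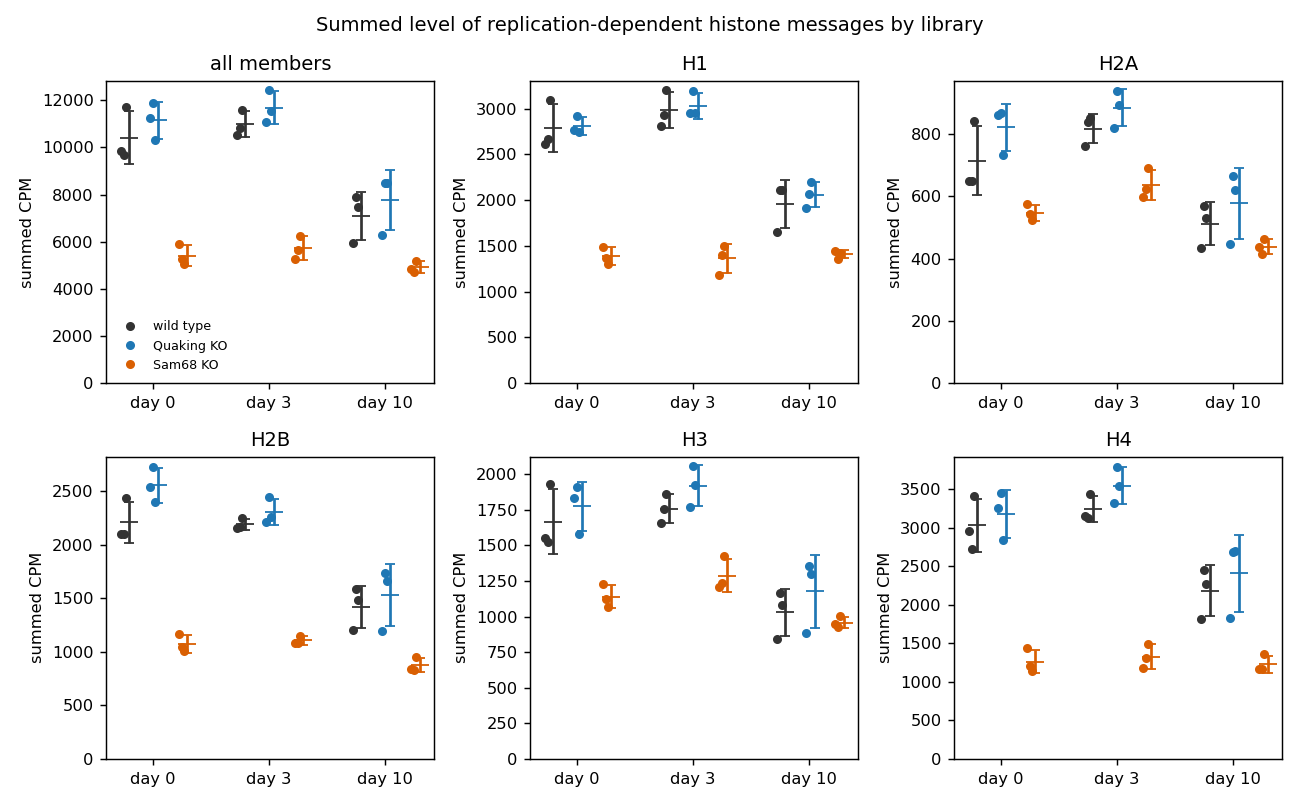
Summed CPM of the histone genes and of their families in each of the 27 libraries, by line and day, with group means as bars. Wild-type sums lie at 9674 CPM or more at day 0 and at 7886 CPM or less at day 10.

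By the quasi-likelihood test of edgeR, with Benjamini-Hochberg adjustment over all genes, which also served for every adjusted p that follows, 51 of the 63 genes tested fell from day 0 to day 10 in wild type and 5 rose. Over all genes tested, 80.8% were called at day 10, 41.4% higher and 39.4% lower. The median log2 fold change of the histone genes was -0.56, beside 0.01 over all genes. Each family held 1 rise. Falls came to 5 of 6 H1 genes (median -0.71), 13 of 17 H2A (-0.48), 14 of 16 H2B (-0.67), 10 of 11 H3 (-0.56) and 9 of 13 H4 (-0.52). The 7 genes not called included the H4 genes Hist1h4c, Hist1h4h and Hist1h4j and the H2A gene Hist2h2ab. When scaling factors came from protein-coding genes without shared sequence, the median of all genes at day 10 moved to -0.20, with 82.4% of them called, and 56 histone genes were lower and 5 higher.

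From day 0 to day 3 in wild type, 13 members rose, 5 fell and 45 did not pass the test, beside 60.9% of all genes called, 30.8% higher and 30.1% lower. The median over the members was 0.13 on the log2 scale. The 13 comprised 7 H2A, 3 H3, 1 H1, 1 H2B and 1 H4 genes, and the 5 comprised 3 H2B, 1 H1 and 1 H2A genes. Without replicate 3 of wild type at day 0, which had the highest histone sum of its group, 21 members rose and 3 fell. The share of all genes called in that fit is not given here. A fit of the 6 libraries alone called 24 higher and 7 lower, beside 72% of all genes.

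The largest rises were those of the 2 Hist3 genes. Hist3h2a, an H2A gene, had 0.696, 0.927 and 0.719 CPM at day 0, 4.44, 4.01 and 2.96 at day 3, and 2.72, 3.8 and 4.62 at day 10. Every library of day 3 and day 10 lay above those of day 0. The log2 fold change was 2.31 ± 0.24 (SE, adjusted p = 1.47e-06) at day 3 and 2.29 ± 0.23 (adjusted p = 7.62e-07) at day 10, both against the same day 0 libraries. Its model overlaps Trim17 on the same strand, so its reads may not all be its own. Hist3h2ba, the H2B gene beside it, had 9.8, 9.29 and 11.7 CPM at day 0, 36.7, 30.2 and 38 at day 3, and 22.1, 25.7 and 24.1 at day 10. It was highest at day 3 with no overlap between days, and rose by 1.80 ± 0.11 (adjusted p = 8.09e-09) and 1.26 ± 0.11 (adjusted p = 1.34e-07).

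Hist1h1e, a linker histone gene, rose within a cluster in which most genes fell. It had 246.3, 241.7 and 287.6 CPM at day 0, 532.9, 548.1 and 606.4 at day 3, and 364.4, 449.2 and 453.5 at day 10. The days did not overlap, and the gene rose by 1.15 ± 0.10 (adjusted p = 2.6e-07) at day 3 and 0.75 ± 0.10 (adjusted p = 9.64e-06) at day 10. Hist4h4 had 158, 140.3 and 182.1 CPM at day 0, 241.8, 248.9 and 278.7 at day 3, and 189.6, 277.8 and 249.6 at day 10. All later libraries lay above the day 0 ones, with rises of 0.71 ± 0.13 and 0.62 ± 0.13. Hist2h3c2, an H3 gene near 1.39 CPM at day 0, rose by 1.33 ± 0.13 at day 3 and 0.99 ± 0.13 at day 10. The H2A gene Hist2h2ab rose at day 3, by 1.02 ± 0.13, from a mean of 6.79 to 13.5 CPM, and stood at 7.56 CPM at day 10, where it was not called.

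The annotated models of these genes shared a feature noticed after their values were seen. In 20 of the genes tested the model runs over 100 bases past the stem-loop, and these held the 5 that rose at day 10, 13 that fell and 2 not called. Past its stem-loop the model continues for 1643 bases in Hist3h2a, 169 in Hist3h2ba, 1153 in Hist1h1e, 2445 in Hist4h4 and 377 in Hist2h3c2. Of the 20 whose model ends within 100 bases, 17 fell and 3 were not called, and of the 23 without the pattern, 21 fell. Hist2h4, whose model runs on for 1257 bases, fell by 0.73 on the log2 scale, and Hist1h1t, at 185 bases, fell as well.

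**Figure D2:**
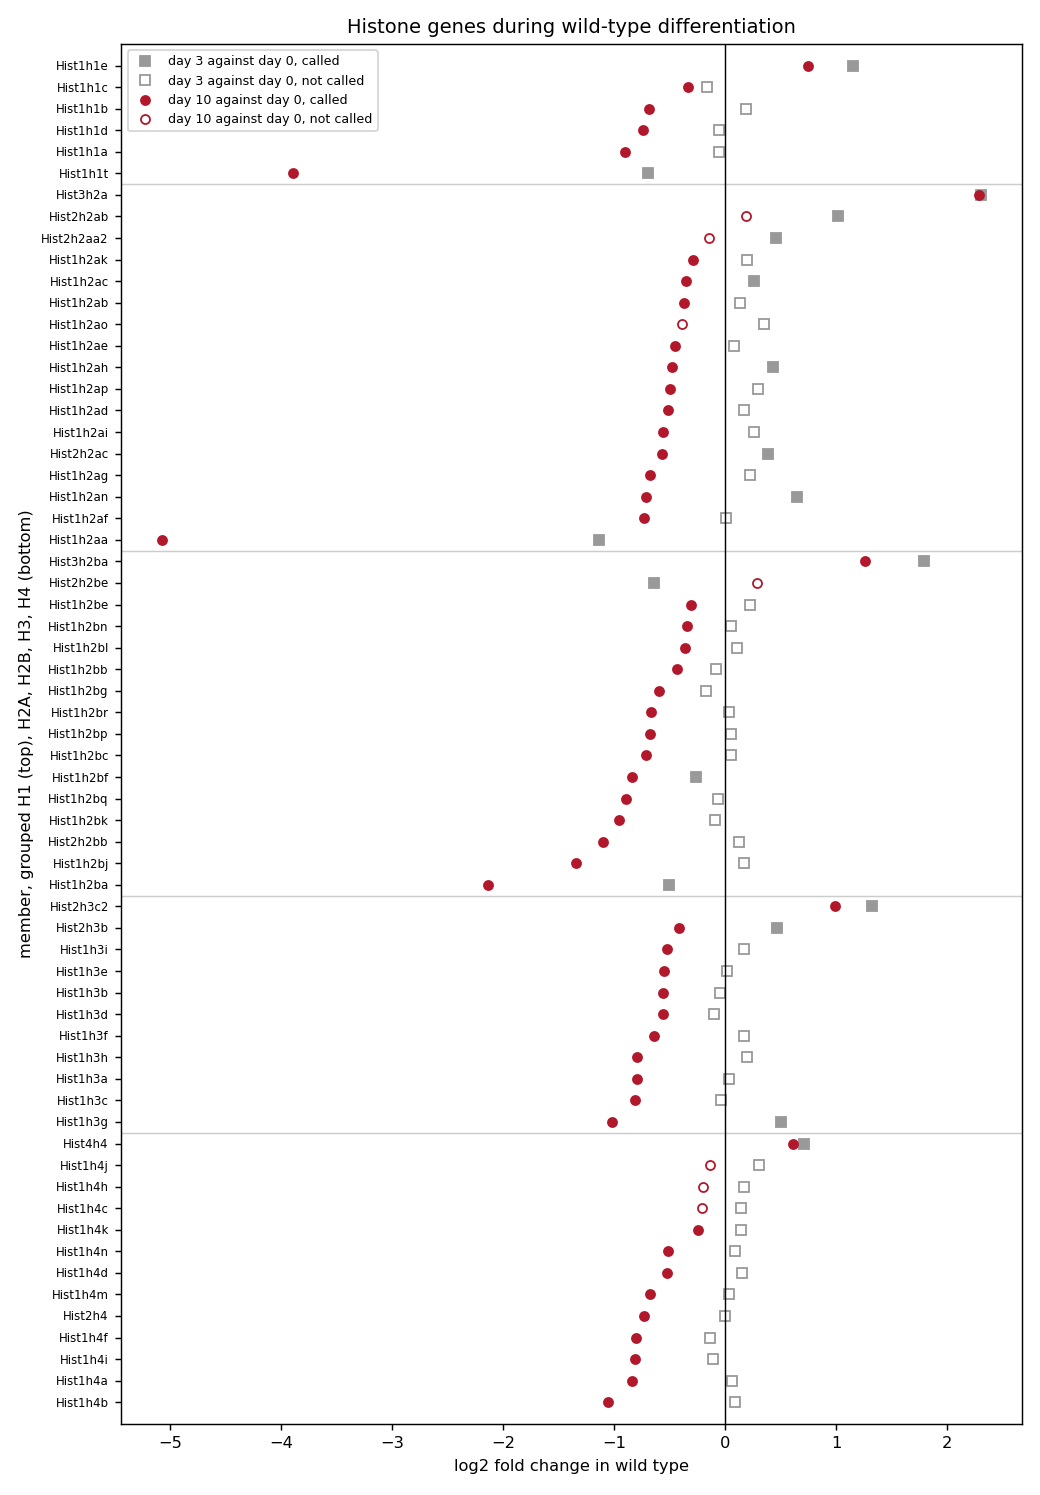
Log2 fold change of each of the 63 genes tested in wild type at day 3 and at day 10 against day 0, one line per gene, ordered by family. At day 10 most points lie left of 0, and Hist3h2a, Hist3h2ba, Hist2h3c2, Hist1h1e and Hist4h4 lie to the right.

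The largest falls belonged to the 3 testis members. Hist1h1t, Hist1h2aa and Hist1h2ba encode the linker histone H1t and the H2A and H2B variants best known from spermatogenic cells. Hist1h2aa had 6.83, 5.22 and 6.19 CPM at day 0, 2.63, 2.62 and 2.87 at day 3, and 0.218, 0.13 and 0.18 at day 10. The 3 days did not overlap, and the falls were by 1.14 ± 0.13 (adjusted p = 4.97e-06) and by 5.07 ± 0.19 (adjusted p = 1.65e-11). Hist1h1t went from 4.24, 4.51 and 4.7 CPM at day 0 to 0.231, 0.26 and 0.385 at day 10, and fell by 3.89 ± 0.17 (adjusted p = 1.07e-10). Hist1h2ba, the divergent partner of Hist1h2aa, fell by 2.14 ± 0.17, from a mean of 4.79 to 1.06 CPM. The male germ cell markers summed to 37.5 to 42 CPM at day 0 and 2.62 to 3.28 CPM at day 10 in the same libraries, with 2 of the 4 at day 0 and 3 at day 10 under 1 CPM. Their part in these falls was not tested.

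Among the abundant members the largest falls at day 10 were those of Hist1h2bj, Hist2h2bb, Hist1h4b and Hist1h3g. Hist1h2bj, an H2B gene, had 116.7, 111.7 and 135.1 CPM at day 0, 127, 135.3 and 137.9 at day 3, and 38, 51.2 and 50 at day 10. Its day 10 libraries were all low and days 0 and 3 overlapped. It fell by 1.35 ± 0.11 at day 10 (adjusted p = 6.39e-08). Hist2h2bb fell by 1.10 ± 0.11, Hist1h4b by 1.05 ± 0.11 and Hist1h3g by 1.02 ± 0.12. Hist1h3g differed from the others in having risen at day 3, by 0.50 ± 0.12 (adjusted p = 0.00189).

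At day 10, where 51 of the 63 genes tested fell, both genes fell in 10 of the 12 divergent pairs. In the other 2 pairs 1 gene fell. At day 3 the pair of Hist2h2ac and Hist2h2be was called in opposite directions, at 0.38 ± 0.11 and -0.64 ± 0.15. Hist2h2be, an H2B gene with no stem-loop match and a poly(A) signal at its annotated end, is rare: 1.38, 1.35 and 1.45 CPM at day 0, 0.953, 0.79 and 0.887 at day 3, and 1.71, 1.64 and 1.64 at day 10. Its levels were lowest at day 3 and highest at day 10, without overlap, although the rise at day 10 missed the threshold (0.29 ± 0.13, adjusted p = 0.0613).

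The make-up of the H1 messages changed with the day, measured as each gene's percent of the summed H1 CPM. These CPM are not corrected for length, so a share is compared only with the same gene's share elsewhere. Hist1h1e took 9.44, 9.04 and 9.3% at day 0, 18.9, 18.7 and 18.9% at day 3, and 22, 21.3 and 21.5% at day 10. The days did not overlap. Hist1h1a took 28.9, 29.1 and 28.9% at day 0, 24.9, 25.9 and 25.7% at day 3, and 20.4, 22 and 21.9% at day 10. In the Quaking KO line Hist1h1e took a mean of 8.37%, 19.3% and 22% over the days.

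**Figure D3:**
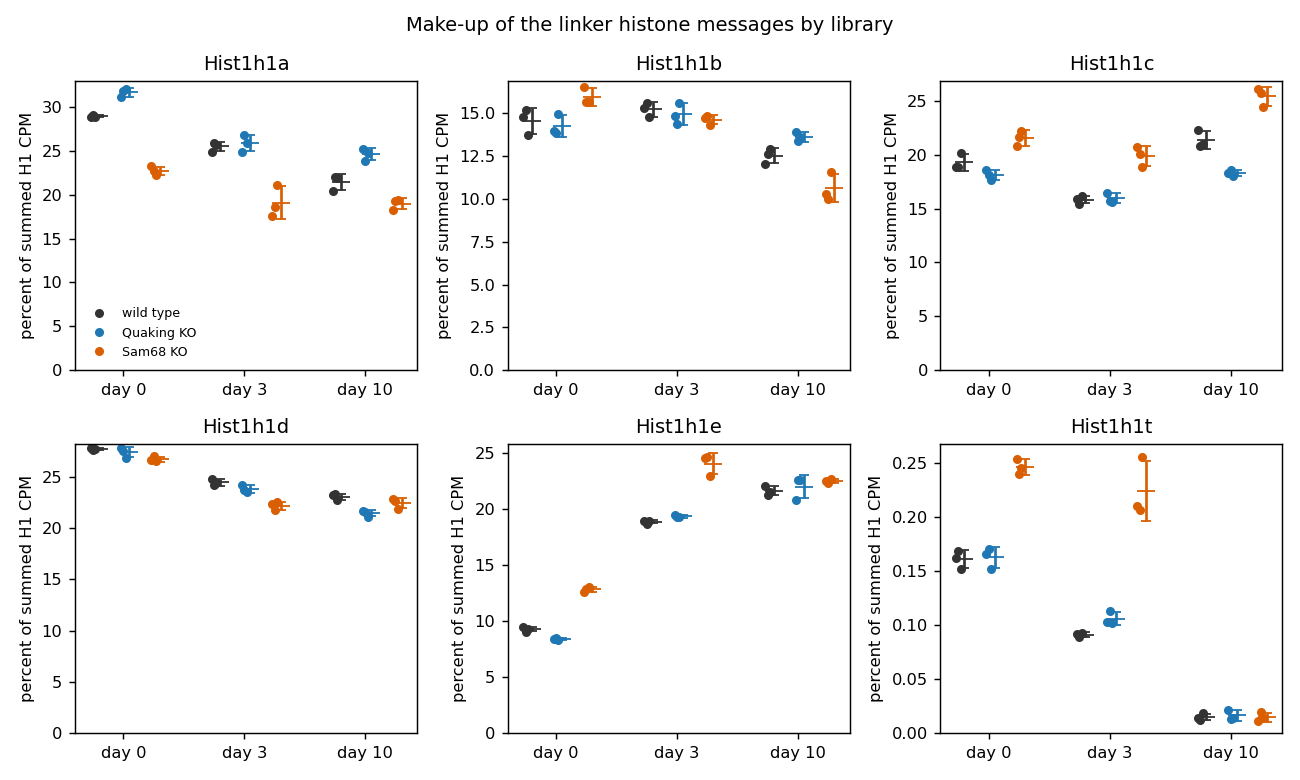
Percent of the summed H1 CPM held by each H1 gene in each library, by line and day. In every line the share of Hist1h1e is lowest at day 0, where it is 9.04 to 9.44% in wild type, and 18.7% or more at days 3 and 10.

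Genes that serve these messages were followed from lists of named factors. From day 0 to day 10 in wild type, 80.8% of all genes were called, 41.4% higher and 39.4% lower. Of 23 DNA replication genes, 0 rose and 23 fell at day 10 in wild type, with a median of -1.17, among them the licensing factors Cdt1 (-1.61 ± 0.06) and Mcm2 (-1.70 ± 0.07). Of 13 histone chaperones all 13 fell, including Hat1, which acetylates new H4 (-1.76 ± 0.08), Daxx (-1.50 ± 0.06) and Asf1b (-1.39 ± 0.08). Of 20 genes for the processing, cap binding and decay of histone messages, 15 fell and 2 rose. Slbp had 127.6, 130.5 and 136.4 CPM at day 0 and 71.2, 83.3 and 85.2 at day 10, a fall by 0.68 ± 0.08 without overlap. Zfp473, the zinc finger protein of the U7 complex, fell by 2.06 ± 0.06, and Lsm11 rose by 0.73 ± 0.06. Of 12 genes for histone gene transcription 7 fell, with cyclin E1 (Ccne1) at -3.35 ± 0.08, and 1, Nfya, rose.

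The replication-independent histones can be made outside S phase and mostly have poly(A) tails, and H2afx is known for messages of both kinds, with a tail and with a stem-loop. Of 11, 5 rose and 4 fell at day 10 in wild type, beside 41.4% of all genes higher and 39.4% lower. H1f0, the linker histone of differentiated cells, rose by 2.65 ± 0.09 (adjusted p = 6.22e-12), from 35.8, 38 and 38.8 CPM to 199.3, 246 and 243.8 CPM. The macroH2A genes H2afy and H2afy2 rose by 1.06 ± 0.08 and 1.07 ± 0.09. H2afj, H2afx and H2afz fell by 1.36 ± 0.11, 1.17 ± 0.10 and 1.14 ± 0.08.

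The Quaking KO line went through a similar course, fitted on its own 9 libraries. At day 3, 13 histone genes rose and 6 fell against its day 0, beside 69% of all genes called, 34.2% higher and 34.8% lower. Scaling on genes without shared sequence moved that split to 11 higher and 11 lower. The rises came to 21 without the filter on low counts, beside 44.8% of all genes, to 25 on the 6 libraries alone, beside 74.9%, and to 23 without replicate 1 of any group, beside 65.9%. At day 10, 5 rose and 50 fell, beside 83.5% (43.1% higher, 40.5% lower), with a median of -0.50, which became -0.35 without replicate 1 at day 10. The 6 falls at day 3 became 3 without replicate 1 at day 3 or without replicate 2 or 3 at day 0. Hist3h2ba rose by 1.95 ± 0.16 and Hist3h2a by 1.56 ± 0.16 at day 10, and Hist1h2aa was at -4.02 ± 0.16 and Hist1h1t at -3.72 ± 0.17.

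At day 0 the genes called between the Quaking KO line and wild type were mostly H2A and H2B genes with slightly more message in the knockout. Of 63 genes tested 18 rose, 4 fell and 41 did not pass the test, while 39.7% of all genes were called, 19.4% higher and 20.3% lower. The 18 comprised 9 H2B, 8 H2A and 1 H3 genes and no H1 or H4 gene. The median log2 difference was 0.21 over H2A, 0.18 over H2B, 0.09 over H3, 0.05 over H4 and -0.02 over H1, beside 0.00 over all genes. Over all members it was 0.10, and became 0.18 without replicate 3 of the Quaking KO line and 0.22 without replicate 3 of wild type. The summed levels of all members overlapped, at 11265, 11878 and 10305 CPM in the knockout, a ratio of means of 1.07. Single libraries weigh on the count: 10 rose without replicate 2 of wild type, 11 without replicate 2 of the Quaking KO line and 32 without replicate 3 of wild type. The shares of all genes called in these fits are not given here, so the counts cannot be set against them. DESeq2 called 13 higher and 2 lower, beside 35.4% of all genes. Without the filter on low counts 33 rose, beside 24.1%, and without replicate 1 of any group 11 rose, beside 32.7%.

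Markers of other cell types differed between the same libraries. The 8 embryonic stem cell markers summed to 4980 to 5303 CPM in the Quaking KO line and 4388 to 4658 in wild type. The 6 extraembryonic endoderm markers summed to 13.5 to 14.8 CPM against 25.9 to 26.7, with 3 under 1 CPM in each line. The male germ cell markers summed to 32 to 34.9 CPM against 37.5 to 42, and the cardiac markers to 3.47 to 4.03 against 5.78 to 6.44. None of these ranges overlapped, and their part in the histone values was not tested.

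Among the abundant genes, Hist1h2ab had 188.5, 180.1 and 162.3 CPM in the Quaking KO line and 132.1, 134.8 and 167.5 in wild type at day 0. The groups overlapped through 1 library each, the lowest knockout and the highest wild-type one. The difference was 0.28 ± 0.06 (adjusted p = 0.00198). Hist1h2bj had 147, 162.1 and 133.5 CPM against 116.7, 111.7 and 135.1, a difference of 0.27 ± 0.06 (adjusted p = 0.0017). Hist1h2bc rose by 0.27 ± 0.07, Hist1h2bk by 0.26 ± 0.06 and Hist1h2ae by 0.30 ± 0.07. Hist1h2ap, which shares 93.1% of its windows with other genes, rose by 0.35 ± 0.10. The calls of Hist1h2ab and Hist1h2ae were lost without replicate 1 of any group (adjusted p = 0.0697 and 0.0841), and that of Hist1h2ap without replicate 2 of wild type (0.05). In 3 of the 12 divergent pairs both genes rose, and in 6 others 1 of the pair did.

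The largest differences at day 0 were in rarer members, and the 2 Hist3 genes went opposite ways. Hist3h2a had 1.4, 1.18 and 1.37 CPM in the Quaking KO line against 0.696, 0.927 and 0.719 in wild type, higher without overlap (0.74 ± 0.17, adjusted p = 0.00157). Hist3h2ba had 5.75, 5.84 and 5.04 CPM against 9.8, 9.29 and 11.7, lower without overlap (-0.90 ± 0.09, adjusted p = 2.36e-07). Hist1h2aa had 3.14, 3.81 and 3.13 CPM against 6.83, 5.22 and 6.19, also lower in every library (-0.86 ± 0.11, adjusted p = 3.44e-06). Its partner Hist1h2ba was at -0.24 ± 0.11 and missed the threshold (adjusted p = 0.105). Hist2h2be rose by 0.45 ± 0.13, from 1.38, 1.35 and 1.45 CPM to 1.76, 1.87 and 2.12.

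At day 0 Hist4h4 had lower values in the Quaking KO line, 128.1, 140.4 and 108.4 CPM against 158, 140.3 and 182.1. The groups overlapped through 1 library each, and the difference was -0.36 ± 0.10 (adjusted p = 0.00648; DESeq2 0.107). It lies on chromosome 6, where 421 of 985 other genes tested were lower and the median was -0.18. The part of the chromosome in the value of Hist4h4 was not tested. Hist1h1e was lower by little (-0.15 ± 0.05, adjusted p = 0.0294), and its call was lost under 7 of 14 other settings, with adjusted p up to 0.214.

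Genes for replication were called in the same comparison, in which 39.7% of all genes were called, 19.4% higher and 20.3% lower. Of 23, 12 rose and 2 fell at day 0, with Mcm5 at 0.31 ± 0.03 and Pola1 at 0.31 ± 0.03. Of the 12 transcription genes 6 rose, including Pou2f1, which binds the octamer (0.20 ± 0.04), and 2 fell, the cyclins Ccne1 and Ccne2. The processing list had 3 higher, with Ncbp2 of the cap complex at 0.20 ± 0.04, and 4 lower, with the decay factors Lsm1 (-0.31 ± 0.04) and Eri1 (-0.17 ± 0.03), the latter an exonuclease that trims the stem-loop. Of 13 chaperones 5 rose, namely Ipo4, Chaf1a, Ssrp1, Daxx and Asf1b, and 0 fell, with Ipo4, an importer of H3 and H4, at 0.24 ± 0.03. Of the replication-independent histones 6 rose and 2 fell, H2afy by 0.67 ± 0.04 on the log2 scale. Their part in the histone gene values was not tested.

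**Figure D4:**
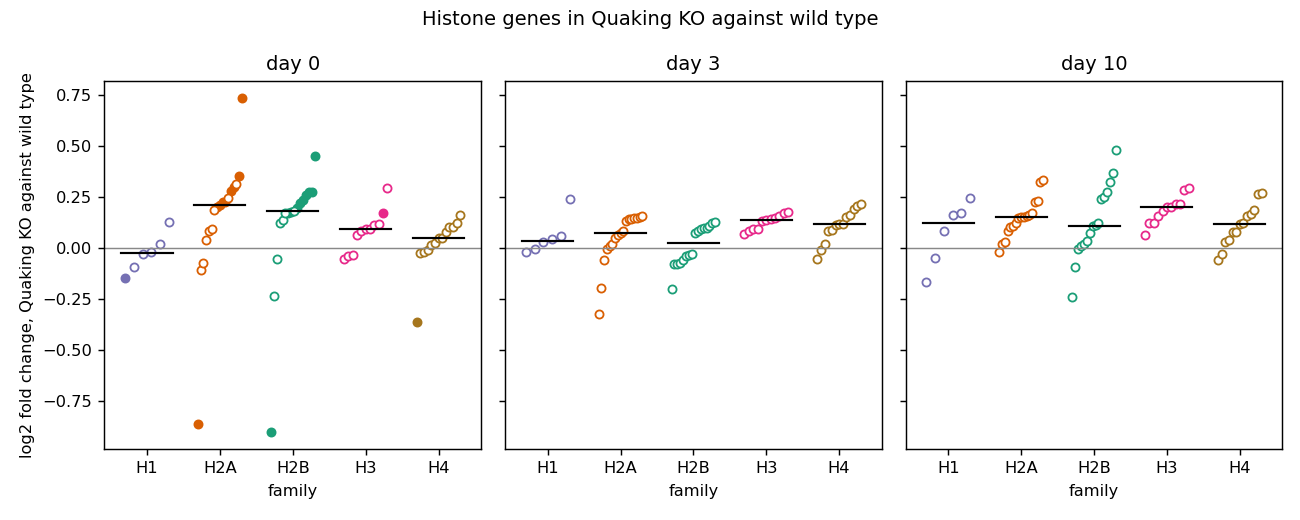
Log2 fold change of each histone gene in the Quaking KO line against wild type at days 0, 3 and 10, by family, with called genes marked. At day 0 the medians are 0.21 for H2A and 0.18 for H2B, and at days 3 and 10 no gene is called.

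At day 3, 0 of the 63 genes passed edgeR's test between the Quaking KO line and wild type, where 7.01% of all genes were called (3.08% higher, 3.93% lower), and DESeq2 called 0, beside 7.37%. At an unadjusted p under 0.05, 11 were higher and 1 lower, beside 20.5% of all genes. The median was 0.09, and 47 of 63 differences were above 0. At this day the libraries numbered 1 deviated together (r = 0.407 over genes), while replicates 2 and 3 were not clearly paired by number. A fit with a replicate block called 5 genes higher, beside 9.59% of all genes. These were Hist1h4c (0.20 ± 0.06, adjusted p = 0.037), Hist2h3b (0.18 ± 0.05, adjusted p = 0.023), Hist1h3e (0.16 ± 0.04, adjusted p = 0.0311), Hist1h2ak (0.15 ± 0.04, adjusted p = 0.0251) and Hist1h2ai (0.14 ± 0.04, adjusted p = 0.0241). With the block on the 6 libraries alone, chosen after seeing the data, 18 genes rose, beside 13.2%. Hist1h4c had 223.9, 272.5 and 249.3 CPM in the Quaking KO line and 208.4, 205.5 and 232.1 in wild type, groups that overlapped although the knockout was higher under each number. Leaving out replicate 1 of the Quaking KO line gave 2 higher, and leaving out replicate 2 of wild type gave 1 lower, with no share of all genes given here for either fit. Without the filter on low counts 8 were higher and 1 lower, beside 5.48% of all genes. The 6 libraries alone gave 1 higher, beside 5.43%, and leaving out replicate 1 of every group gave 2, beside 7.04%. The extraembryonic endoderm markers summed to 21.9 to 23.3 CPM in the Quaking KO line at this day and 37.6 to 46.1 in wild type, with 2 of 6 under 1 CPM in each, and their part was not tested. Of the lists, Cdt1 was higher (0.17 ± 0.04) and Eri1, H1f0 and H2afy were lower, with no other gene called.

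At day 10, 0 of the 63 genes passed, beside 11.7% of all genes (4.96% higher, 6.71% lower), and DESeq2 called 0, beside 14%. At an unadjusted p under 0.05, 4 were higher and 0 lower, beside 25.8% of all genes. The median was 0.15, beside -0.02 over all genes, and 55 of 63 differences were above 0. The knockout sums of 6284, 8507 and 8485 CPM overlapped the wild-type 5948, 7886 and 7481 CPM. Replicate 1 was the lowest of its group in both lines at days 3 and 10. In that replicate the mitochondrial ribosomal RNA mt-Rnr2 took the highest share of counts of its group, 9.34% in wild type and 9.81% in the Quaking KO line at day 10, against 7.81 to 8.75% in the others. At day 0 replicate 1 had the highest share as well, 13.7% in wild type and 14.8% in the Quaking KO line. Its histone sum was not the lowest of its group there in either line. Without replicate 1 of any group, a choice made after seeing the data, 11 genes rose at day 10, beside 11.7% of all genes. Leaving out only replicate 1 of the Quaking KO line gave 5 higher, and leaving out only replicate 1 of wild type gave 1 lower. For these fits the shares of all genes called are not given here. The part of that replicate's RNA in these values was not tested.

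At day 10 the calls among genes that serve the histone messages were mostly for replication, where 11.7% of all genes were called, 4.96% higher. Of 23 replication genes, 9 rose and 0 fell, with Mcm5 at 0.49 ± 0.07 (adjusted p = 0.00126) and Cdt1 at 0.37 ± 0.06. Of the chaperones 3 rose: Asf1b, Nasp, which holds H3 and H4, and Chaf1a, which deposits them behind the fork. Slbp rose by 0.26 ± 0.06 (adjusted p = 0.0231), and Casp8ap2, a partner of the histone gene coactivator Npat, by 0.22 ± 0.05. H1f0 fell by 0.30 ± 0.08 on the log2 scale. In the same libraries the cardiac markers summed to 189 to 406 CPM in the Quaking KO line and 719 to 785 in wild type. The embryonic stem cell markers summed to 183 to 192 CPM against 136 to 163, also without overlap. The part of these markers was not tested.

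The interaction of line and day asks whether the knockout difference changed with differentiation. Against day 0, the difference at day 3 rose for Hist1h2aa and Hist3h2ba and fell for Hist3h2a and Hist1h2bf, 4 of 63 genes, beside 15.9% of all genes called (9.45% higher, 6.45% lower). Hist1h2aa was at 2.85, 2.74 and 2.84 CPM in the Quaking KO line at day 3 against 2.63, 2.62 and 2.87 in wild type, groups that overlapped, after the lower level at day 0. The interaction was 0.91 ± 0.16 (adjusted p = 0.000577). Hist3h2ba was at 32.8, 30.8 and 27.7 CPM against 36.7, 30.2 and 38, overlapping too, with an interaction of 0.70 ± 0.14 (adjusted p = 0.00207). Hist3h2a was at 3.43, 2.43 and 3.27 CPM against 4.44, 4.01 and 2.96, with an interaction of -1.06 ± 0.26 (adjusted p = 0.0089). Hist1h2bf was at -0.28 ± 0.09 (adjusted p = 0.0406). The count of 2 falls became 5 without replicate 3 of wild type at day 0, and 1 without any of 7 other libraries (Quaking KO replicates 1 and 2 at day 0 and 1 and 3 at day 3, wild-type replicates 1 and 2 at day 0 and 3 at day 3). Without the filter on low counts 4 rose and 4 fell, beside 9.39% of all genes, and without replicate 1 of any group 2 rose and 0 fell, beside 12.4%. At day 10, where 13.8% of all genes were called (8.63% higher, 5.19% lower), only Hist1h2aa passed (1.03 ± 0.32, adjusted p = 0.0434), at 0.207, 0.178 and 0.207 CPM against 0.218, 0.13 and 0.18. In fits that left out 1 library, that call was kept without replicate 2 of either line at day 0 and without replicate 1 of wild type at day 10, and was lost without any other library.

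The libraries labelled Sam68 KO are set apart, because their deposited counts of some near-identical copies are low and the message of the targeted gene was not lost. The 5 members that stood out lie in a duplicated stretch of the Hist1 cluster, from Hist1h2bq to Hist1h2br (chr13:21806612-21837530, GRCm38). Hist1h4n lies in the same stretch and was lower by less at day 0, at -1.27 ± 0.08 on the log2 scale. In raw counts at day 0, Hist1h4m had 9, 3 and 5 against 491, 466 and 598 in wild type, and Hist1h2br had 4, 3 and 3 against 277, 273 and 345. Hist1h2ap had 9, 10 and 7 against 248, 220 and 284, Hist1h2bq 18, 8 and 7 against 239, 254 and 288, and Hist1h2ao 9, 4 and 5 against 62, 58 and 77. These 5 genes share 88.7 to 97.3% of their windows with other genes. Over all 63 genes, the difference at day 0 and the shared percent had a Pearson r of -0.24 and a Spearman rho of 0.05 across genes, given as a description.

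Genes with little shared sequence were also lower in the libraries labelled Sam68 KO. Over all members 55 fell and 2 rose at day 0, beside 74.4% of all genes called (36.5% higher, 37.9% lower), with a median of -0.78. At day 3, 53 fell and 2 rose, beside 73.1% (36% higher, 37.1% lower), and at day 10, 45 fell and 0 rose, beside 50.6% (22.8% higher, 27.8% lower). Of the 31 genes that share less than 50% of their windows, 28 were lower at day 0, with a median of -0.97 beside -0.01 over all genes. The summed levels were 5896, 5284 and 5042 CPM at day 0, 5256, 5642 and 6266 at day 3, and 4835, 4706 and 5194 at day 10. Each lay below every wild-type library of its day, with ratios of 0.519, 0.52 and 0.691. Markers of other cell types moved with the line. At day 0 the embryonic stem cell markers summed to 3155 to 3206 CPM against 4388 to 4658 in wild type, and the extraembryonic endoderm markers to 113 to 118 against 25.9 to 26.7, with 3 of 6 under 1 CPM in each. At day 3 the embryonic stem cell markers summed to 1549 to 1664 CPM against 2254 to 2424. At day 10 the cardiac markers summed to 1549 to 1686 CPM against 719 to 785, and the fibroblast markers to 2044 to 3403 against 5440 to 7126. Their part in the histone values was not tested. By family, the median at day 0 was -1.21 for H4, -0.97 for H2B, -0.79 for H1, -0.46 for H3 and -0.40 for H2A. The library batch and the counting cannot be told apart from the line, and these comparisons share their wild-type libraries with those of the Quaking KO line.

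Single genes departed from that pattern. Hist3h2a was higher at day 0, at 1.19, 1.51 and 1.3 CPM (0.84 ± 0.16), as was Hist2h3c2 (0.64 ± 0.14), and without replicate 3 of wild type 5 genes rose. At day 3 Hist1h2aa was higher, at 6.37, 6.28 and 6.6 CPM against 2.63, 2.62 and 2.87 in wild type, without overlap (1.26 ± 0.09, adjusted p = 5.04e-09), and Hist1h2af was higher by 0.18, a call lost without replicate 1 of either line at that day, when 1 gene rose. At day 10 Hist1h2aa had 5, 0 and 0 counts, and its partner Hist1h2ba had 1, 1 and 0 counts where wild type had 89, 84 and 69. Within the line, which avoids the comparison between batches, 24 of 59 genes rose and 8 fell at day 3, beside 72.9% of all genes (37% higher, 35.9% lower), and 8 rose and 40 fell at day 10, beside 88.1% (45% higher, 43.1% lower), with a median of -0.29. Without replicate 1 at day 0, or without replicate 1 at day 3, 4 fell at day 3, and without replicate 1 of every group 3 fell, beside 66.6% of all genes. Scaling on genes without shared sequence gave 15 higher and 10 lower at day 3, and 4 higher and 48 lower at day 10, where it moved the median of all genes to -0.31. At day 10 Hist3h2ba rose by 2.10 ± 0.08, Hist3h2a by 1.65 ± 0.14, Hist4h4 by 1.58 ± 0.12 and Hist1h1e by 0.84 ± 0.06.

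**Figure D5:**
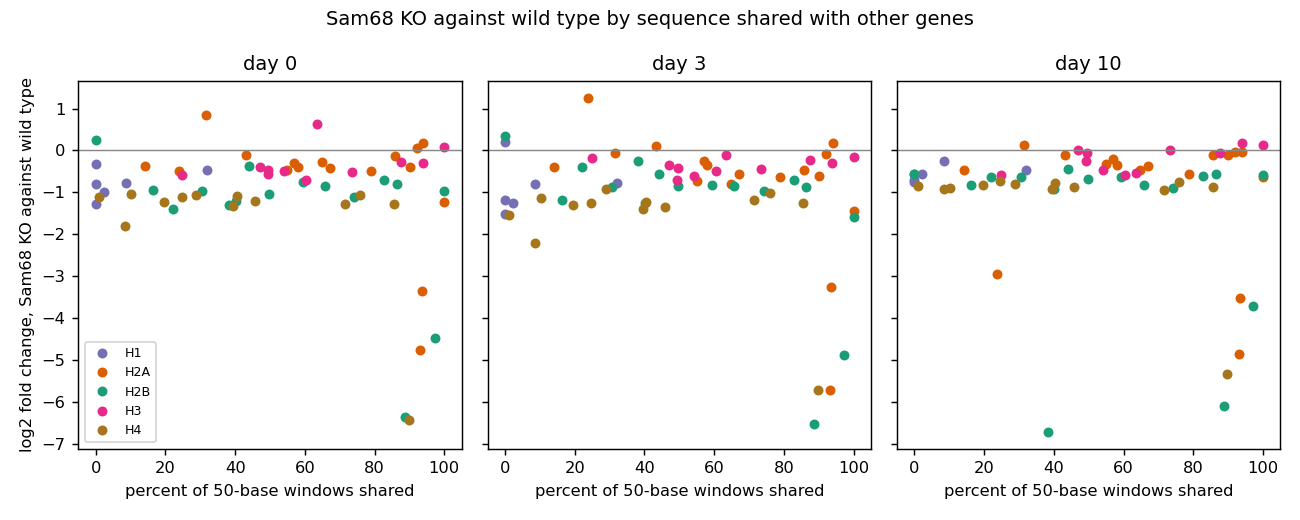
Log2 fold change of each histone gene in the libraries labelled Sam68 KO against wild type at days 0, 3 and 10, against the percent of its 50-base windows found in other genes. The 5 genes that stood out in the duplicated stretch lie lowest at day 0, from -3.36 to -6.42, and the genes under 50% lie mostly below 0.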

How the data were processed

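The authors deposited 1 table of raw read counts per gene for each of the 27 libraries, with no normalisation. Per the submitters' processing notes, bcl2fastq 2.17.1.14, STAR 2.5.3a and the build GRCm38 (mm10) were used. What counted the reads, with which strand setting and annotation, is not given in the sources used here. Identifiers were matched without version to GENCODE M21, which held 51633 of 51826 (99.6%). The members, gene lists and tests were chosen with earlier results of these data known.

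The filter was filterByExpr of edgeR (at least 10 counts, total at least 15), which kept 63 of the 65 histone genes (59 in the line labelled Sam68 KO). Counts were scaled by TMM and compared with edgeR's quasi-likelihood test. P-values were Benjamini-Hochberg adjusted over all genes tested, and genes were called at an adjusted p under 0.05 (edgeR 4.0.16, limma 3.58.1, R 4.3.3). Each day was fitted with its 9 libraries, each line over its 9, and each interaction of line and day over 12. Printed CPM use TMM-scaled sizes over all 27 libraries, and errors are SE of the log2 fold change. Counting error is small for most members at these depths, while the rare ones, near 1 CPM, rest on few counts per library.

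Alternatives were DESeq2 1.42.0, RLE scaling, scaling on protein-coding genes with under 1% shared sequence, no filter, a replicate block, the 6 libraries alone and each library left out. The fits without replicate 1 and with the block on 6 libraries were added after seeing the data. The deviations of same-numbered wild-type and Quaking KO libraries at day 3 had r = 0.407, 0.165 and 0.122 over genes. Wild-type replicate 3 with Quaking KO replicate 2 had 0.159 at that day, so only replicate 1 stood apart by number. Same-numbered libraries did not deviate together at day 0 (0.01, -0.065 and -0.085) or day 10 (0.084, 0.099 and -0.049). The library numbers of wild type and the Quaking KO line run consecutively by replicate, with both lines and all days of a replicate together. Shared sequence is the percent of a gene's 50-base windows found in other genes. Named members are, per comparison, up to 6 rises and 6 falls among called genes of at least 1 CPM, the 2 highest per family, the testis members and those without counts, and up to 3 genes per list and direction. Some are left out for length, and Hist1h2bc, Hist2h4, Hist2h2ac, Npat and the genes called only under the block were named after their values were seen. The scripts were tested on simulated data.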

Additional observations from a re-analysis of the deposited data

Results flagged for a closer look

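The Quaking KO difference changed with the day for 4 genes by a test of the line and day interaction, fitted on 12 libraries with edgeR's quasi-likelihood test. Of 63 genes tested, these 4 were called at day 3, beside 15.9% of all genes. At day 10 only Hist1h2aa was called, beside 13.8% of all genes. At day 3 against day 0 the interaction was 0.91 for Hist1h2aa and 0.7 for Hist3h2ba, both kept under 18 of 18 other settings. It was -1.06 for Hist3h2a, kept under 17 of 18 (highest adjusted p 0.0621), and -0.28 for Hist1h2bf, kept under 10 of 18 (highest adjusted p 0.179). At day 10 against day 0 it was 1.03 for Hist1h2aa, kept under 7 of 18 (highest adjusted p 0.112), where its level was at most 0.218 CPM in every library of both lines. In the first 3 cases the groups were apart at day 0 and overlapped at day 3.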

How the results depend on the processing

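No direction of a member named by the rule and called changed under any setting run, except Hist1h4j in the line labelled Sam68 KO at day 10, which moved to -0.027 (adjusted p 0.777) when scaling used genes without shared sequence; the cause was not tested. Counts are of members called higher or lower. Restricting the count to the 31 members with under 50% shared sequence, fewer genes by construction, gave 8 higher for the Quaking KO line at day 0, 5 higher for wild type at day 3 and 23 lower at day 10, 6 higher at day 3 and 23 lower at day 10 within the Quaking KO line, and 1 lower for its interaction at day 3. For the libraries labelled Sam68 KO it gave 1 higher and 28 lower at day 0, 1 and 25 at day 3, 25 lower at day 10, and within the line 10 higher at day 3 and 21 lower at day 10. DESeq2 gave 2 lower for the Quaking KO line at day 0 and 3 higher for the interaction at day 10, and RLE scaling 2 higher for the latter. Scaling on genes without shared sequence gave 11 lower within the Quaking KO line at day 3, 1 lower for the interaction at day 10, and within the Sam68-labelled line 15 higher at day 3 and 4 at day 10. Without the filter, the Quaking KO line had 33 higher at day 0 and 8 higher and 1 lower at day 3, 21 higher within the line at day 3, 4 higher and 4 lower for the interaction at day 3 and 3 higher at day 10.

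The replicate block gave 5 higher at day 3 and 1 at day 10 for the Quaking KO line, 20 higher for wild type at day 3 and 2 higher for the interaction at day 10; in no other result did the block change a count of calls by more than 1.5 times. The 6 libraries alone gave 1 higher for the Quaking KO line at day 3, 24 higher for wild type and 25 higher for the Quaking KO line from day 0 to day 3, and the block on them 18 higher at day 3 and 5 at day 10. Without replicate 1 of any group, the Quaking KO line had 11 higher at day 0, 2 at day 3 and 11 at day 10, 23 higher within the line at day 3, 0 lower for the interaction at day 3 and 2 higher and 1 lower at day 10. The Sam68-labelled line then had 1 higher at day 3 against wild type and 3 lower at day 3 against its day 0. With each library left out in turn, the Quaking KO line had 10 to 32 higher at day 0, 0 to 2 higher and 0 to 1 lower at day 3, and 0 to 5 higher and 0 to 1 lower at day 10. Wild type had 9 to 21 higher and 3 to 5 lower at day 3, and the Quaking KO line 3 to 6 lower within the line. The interaction had 1 to 5 lower at day 3, and 0 to 2 higher and 0 to 1 lower at day 10. The libraries labelled Sam68 KO had 2 to 5 higher at day 0 and 1 to 2 at day 3, and 4 to 11 lower from day 0 to day 3. The share of all genes called is not given for the fits that left out 1 library, so those counts have no background beside them. The causes of these moves were not tested. Sequence shared between copies limits what can be read for single members: a gene's reads may belong to its copy.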
